A study of Mus musculus with 2 samples.

Results

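A total of 37 mouse genes were represented on an Agilent expression array by probes that changed in opposite directions between embryonic stem (ES) cells and day 6 of neural differentiation. They were chosen by their values: at least 1 probe was 2-fold or more higher on day 6 and another probe of the same gene was 2-fold or more lower. Of 15842 genes with a probe well above background on both arrays, 5537 had at least 2 such probes, and the 37 genes were 0.668% of these. Ncam1 and Slc1a3, which also met the criterion, were left out, and with them the share was 0.704%. Since these differences chose the genes, they are given as a description and carry no test.

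The day 0 sample was RNA of the R1 mouse ES cell line, kept undifferentiated on inactivated fibroblast feeders with 15% serum and 1000 U/ml of LIF, the cytokine that maintains mouse ES cells. The day 6 sample was RNA of R1 cells from embryoid bodies, floating aggregates differentiated directly into neural precursors. The sources used here name no genetic change of the line and do not state the serum or LIF content at day 6. Each time point had 1 array, so no difference has a replicate check, and medium, feeders, aggregation and differentiation cannot be told apart. All 11 measured pluripotency markers dropped 2-fold or more, with a median log2 difference of -5.99, while 9 of 10 neural markers measured on both arrays rose 2-fold or more (median 3.66), and 2 more were well above background on day 6 only. Of 15 fibroblast markers measured on both arrays 7 dropped and 2 rose by 2-fold or more (median -0.66), and Lox was well above background on day 0 only. In such bulk samples, fewer cells of a type and less RNA per cell cannot be told apart, and the part of feeder RNA in the probe differences was not tested.

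A gene can give several messenger RNAs. Alternative promoters change the 5′ end, alternative splicing changes the exons between, and alternative polyadenylation changes where the RNA ends. Neural cells are known for using distal polyadenylation sites, so that many of their transcripts carry longer 3′ untranslated regions (UTRs), and for neural exons controlled by proteins such as Ptbp1, Ptbp2, Srrm4 and the Rbfox and Elavl families. A 60-base array probe reads only the stretch it pairs with, so probes of a gene report separately on forms that differ there. The exon or UTR status of the probes was not determined here, and positions are given in the build named in the array files, mm7 (NCBI build 35).

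The probes of 7 genes are shown first because the rising and the falling probe both carry a RefSeq transcript accession, and in all 7 the same accession is listed for both, so that each pair reads 2 places of a single annotated transcript. D530005L17Rik is now called Cntln. Each line gives the first 30 of the 60 bases of a probe, 5′ to 3′ as in the array files, and capitals mark the stop codons TAA, TAG and TGA in any of the 3 reading frames.
Prkcz falling probe: cctcaagtgggtggacagTGAaggTGAccc
Prkcz rising probe: agacactggTGActtcaTGAttgTAActcg
Cntln falling probe: agtggcaaacgaaaagtTGAtggcgaaTAG
Cntln rising probe: ctcatcatccagtttcacttTAGcagttcc
Creb1 falling probe: ttcattcagttctgtgtgttcagcagtttg
Creb1 rising probe: agtcagtatggaagaatttcaaacaaatca
Arl4c falling probe: ggaTGAgacctcttccagatggccTAGgcc
Arl4c rising probe: atatttattttgTGAcattgcatatgccaa
Arpp19 falling probe: gggtcTGAtttttTAAggaaaagattgcag
Arpp19 rising probe: agtcagacttgtattctTGAtcTGAatatc
Pgm2l1 falling probe: caaaacggctgtgtcgctactctccgaaca
Pgm2l1 rising probe: tattgttttccttTAGtggtggtcacTGAa
Irgq falling probe: agaagTGAcgttttgttattcaaacccgga
Irgq rising probe: caggtgTAAaTGActacatatgttgcccat

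The Prkcz pair lay on the minus strand at chr4:154346022-154347045 (falling) and chr4:154249768-154249827 (rising). The Cntln pair lay on the plus strand at chr4:84398429-84398488 (falling) and chr4:84535317-84535376 (rising). The Creb1 pair lay on the plus strand at chr1:64839787-64839846 (falling) and chr1:64843383-64843442 (rising). The Arl4c pair lay on the minus strand at chr1:88603849-88603908 (falling) and chr1:88602386-88602445 (rising). The Arpp19 pair lay on the plus strand at chr9:75090381-75094495 (falling) and chr9:75097415-75097474 (rising). The Pgm2l1 pair lay on the plus strand at chr7:96316615-96316674 (falling) and chr7:96321472-96321531 (rising). The Irgq pair lay on the plus strand at chr7:21322375-21322434 (falling) and chr7:21325992-21326051 (rising). In each of these 7 pairs the rising probe was the one nearer to the 3′ end. The falling probes of Prkcz and Arpp19 spanned exon junctions, as their genomic spans of 1024 and 4115 bases exceeded the 60 bases of the probe.

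A second set of pairs is shown for the contrast in position. Kbtbd11 and Cds2 had wide gaps between probes within 10 kb, Hipk2 had probes more than 100 kb apart, and the probes of Rap2ip (now Rundc3a) and 2610034N15Rik (now Slc30a7) lay on opposite strands.
Kbtbd11 falling probe: ggctgctggccaTAGtgcatcatgcaaacg
Kbtbd11 rising probe: gttgggccagctgtttctgggtgtgcagtt
Cds2 falling probe: cttcaacacgctcaagtctcaccTAAcTGA
Cds2 rising probe: agagagcagctTAGgaaatctatccattgg
Hipk2 falling probe: tctgctctacgtacttgcaatccagatact
Hipk2 rising probe: ttgtggTGAactgttaTAGcttgttactca
Rundc3a falling probe: cactaTAGggtcacctcaatcctaTAAatc
Rundc3a rising probe: ggacagcgctccattctggtggctcTGAag
Slc30a7 falling probe: gacaacatcacccttacagtTGAggattct
Slc30a7 rising probe: atgtttacattacaaggcTAGgttgggaat

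The Kbtbd11 probes lay on the plus strand at chr8:15003552-15003611 (falling) and chr8:15007303-15007362 (rising), and both list the same complementary DNA. The Cds2 probes lay on the plus strand at chr2:132046072-132046131 (falling) and chr2:132052412-132052471 (rising). The Hipk2 probes lay on the minus strand at chr6:38749129-38749188 (falling) and chr6:38618549-38618608 (rising). The Rundc3a falling probe lay on the minus strand at chr11:102507959-102508018, whereas its rising probe and its further probe lay on the plus strand, the rising one at chr11:102511397-102511456. The Slc30a7 falling probe lay on the plus strand at chr3:115718180-115718239, against the annotated strand of the gene, and its rising probe on the minus strand at chr3:115714065-115714124. For these 2 genes the falling probe thus reads the strand opposite to that of the rising probe.

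The 37 genes had 120 probes on the array, of which 108 were well above background on both arrays and were measured. Of these, 44 rose by at least 1 log2 unit, 43 fell by at least 1 and 21 lay between. The genes had 2 measured probes in 12 cases, 3 in 18, 4 in 5 and 5 in 2. The highest probe of a gene had a median log2 difference of 1.28 (range 1.01 to 3.25) and the lowest a median of -1.24 (range -2.48 to -1.01). The gap between them had a median of 2.60 log2 units (range 2.12 to 4.61), against 0.35 over the other 5498 genes with several probes. Over all 23732 measured probes, 15.7% were 2-fold or more higher on day 6 and 16.6% lower. Of all genes with several probes, 21.6% had a probe that was 2-fold or more higher and 22.1% one that was lower, while every probe was higher in 9.32% and every probe lower in 9.12%. The members nearest the threshold were H2-Q1 (1.01 and -1.50), Arih1 (1.01 and -1.38) and D5Ertd579e (1.26 and -1.01). Just outside it were Ctdsp2 (1.02 and -0.996), H2afy (0.995 and -1.83) and Tpm1 (0.988 and -2.30). Differences are in log2 units, day 6 minus day 0, after each array was set to its 75th percentile. The value after ± is the SD from the scanner software's error model, with a median of 0.20, and does not hold variation between cultures.

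**Figure D1:**
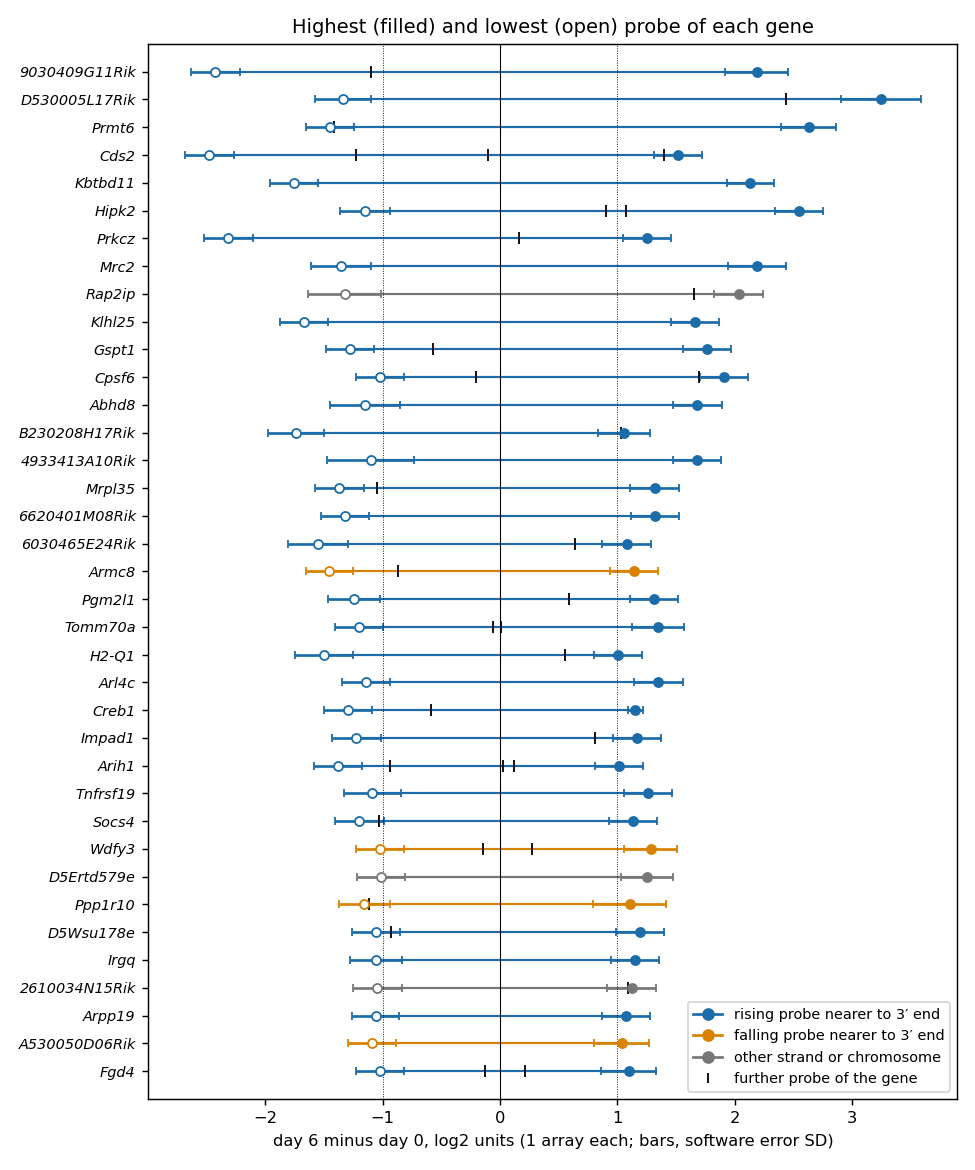
The highest (filled) and lowest (open) probe of each of the 37 genes, as the day 6 minus day 0 difference in log2 units, with further measured probes as ticks and the software error SD as bars; dotted lines mark the threshold of 1 in each direction. Rising probes span 1.01 to 3.25 and falling probes -2.48 to -1.01, and the rising probe was the more 3′ one in the 30 genes drawn in blue.

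The positions of the probes were not used in choosing the genes. Of the 37 opposing pairs, 34 lay on a single strand of a single chromosome and could be ordered along the gene, and in 30 of these (88.2%) the rising probe was nearer to the 3′ end. Among the other genes with several probes, the highest probe was the more 3′ one in 3174 of 5186 ordered pairs (61.2%). A nearer comparison is with the 166 other genes whose gap was no narrower than the narrowest of the 37. There the highest probe was the more 3′ one in 107 of 158 ordered pairs (67.7%). Of these 166 genes, 105 had probes on both sides of 0, 36 had every probe higher and 25 every probe lower. No test was made of these shares, since they come from the same 2 arrays that chose the genes.

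By distance, 2 of the 37 pairs (5.4%) were under 1 kb apart and 20 (54.1%) were 1 to 10 kb apart. A further 10 (27.0%) were 10 to 100 kb apart and 2 (5.4%) more than 100 kb apart. For the highest and lowest probe of the other 5498 genes these shares were 23.0%, 46.0%, 23.0% and 2.27%. The rising probe was the more 3′ one in all 20 pairs at 1 to 10 kb, against 68.5% of the other genes at that distance. Within 10 kb it was the more 3′ one in 21 of 22 members and 72 of 102 wide-gap genes (70.6%). At 10 kb or more it was so in 9 of 12 members and 35 of 56 wide-gap genes (62.5%). Read by position alone, 21 members had a rising probe further 3′ within 10 kb, here called a 3′ end position, and 9 had it at 10 kb or more, here called an isoform position. These names go by the distance between the 2 opposing probes, not by the distance to the end of the gene. In B230208H17Rik, now Rabl6, which is among the 21, another measured probe lay well 3′ of the rising one. The form that each probe read was not determined. Of the 3 pairs that could not be ordered, Rundc3a and Slc30a7 had probes on opposite strands, and the falling probe of D5Ertd579e lay on chromosome 14 and its rising probe on chromosome 5.

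Prkcz encodes protein kinase C zeta, an atypical kinase of cell polarity, whose brain form PKM zeta starts at an internal promoter and lacks the regulatory domain. Its falling probe, across a junction near the 5′ end, read 2500.5 on day 0 and 586 on day 6, a difference of -2.32 ± 0.21. The probe 94878 bases downstream read 8013 on day 0 and 10437 on day 6, a difference of 0.16 ± 0.20, and the rising probe near the 3′ end read 1792 on day 0 and 4997 on day 6, a difference of 1.26 ± 0.20. All 3 probes list the RefSeq transcript NM_008860, and the 2 downstream probes also list NM_001039079, although the lists hold at most 4 accessions and a transcript left out of one may still match the probe. In these arrays the most 5′ probe was thus lower on day 6, the next within 2-fold and the most 3′ one higher. The last 2 probes lay 94878 and 96736 bases from the first, midpoint to midpoint. No probe thus read the long stretch between, and the 2 downstream probes, though close together, differed in their change.

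Among other signalling genes, Hipk2, a nuclear kinase of stress and developmental signalling, had the falling probe most 5′. That probe read 1169 on day 0 and 615 on day 6, a difference of -1.15 ± 0.21. The most 3′ probe read 3815 on day 0 and 26029.7 on day 6, a difference of 2.55 ± 0.20. The 2 probes between them, both with the RefSeq accession of the gene, differed by 1.08 ± 0.30 and 0.91 ± 0.36. Thus 3 of 4 probes were higher on day 6, but the 2 middle ones were dim. On day 0 both read under 2 times the lowest intensity well above background. Creb1 encodes a transcription factor activated by cyclic AMP. Its falling probe read 1928 on day 0 and 916 on day 6, a difference of -1.30 ± 0.21. Its rising probe, 3536 bases downstream, read 7906 on day 0 and 20548 on day 6, a difference of 1.15 ± 0.06. This SD is smaller because the probe was averaged over several spots, whose errors were taken as independent. The remaining probe, the most 5′ one, differed by -0.58.

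Arl4c encodes a small GTPase of membrane traffic and cell shape. Its falling probe read 33429 on day 0 and 17669.5 on day 6, a difference of -1.14 ± 0.20. Its rising probe, 1403 bases downstream, read 971 on day 0 and 2886 on day 6, a difference of 1.35 ± 0.21. Arpp19, an inhibitor of protein phosphatase 2A in mitosis, had a falling probe that read 42423 on day 0 and 23738 on day 6, a difference of -1.06 ± 0.20, and a rising probe that read 2369 on day 0 and 5807 on day 6, a difference of 1.07 ± 0.20. For both genes the same RefSeq transcript is listed for both probes, and the downstream stretch was the one higher on day 6. Socs4, a suppressor of cytokine signalling, had 2 falling probes within 354 bases, 1 at -1.03 and the lower reading 1389 on day 0 and 706 on day 6, a difference of -1.20 ± 0.21. Its rising probe, 4927 bases further 3′, read 3068 on day 0 and 7869 on day 6, a difference of 1.14 ± 0.20.

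Several members act on RNA or protein synthesis. Cpsf6 encodes a subunit of cleavage factor I, which promotes the use of distal polyadenylation sites, and is the only member from the lists of splicing and polyadenylation factors. Its most 5′ probe read 11850.1 on day 0 and 6789.9 on day 6, a difference of -1.03 ± 0.20. Its most 3′ probe read 13802 on day 0 and 60497 on day 6, a difference of 1.91 ± 0.20. The probes between differed by 1.70 and -0.21, which does not follow their order along the gene. At its falling probe Gspt1, which encodes the translation termination factor eRF3a, read 78601 on day 0 and 37862 on day 6, a difference of -1.28 ± 0.20. At a probe 4422 bases downstream it read 3454 on day 0 and 13676 on day 6, a difference of 1.76 ± 0.20, and its most 5′ probe differed by -0.57.

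Prmt6, an arginine methyltransferase of histones, had a pair of falling probes 180 bases apart start to start. The lower of them read 5844 on day 0 and 2493 on day 6, a difference of -1.45 ± 0.20, and the other differed by -1.42. The rising probe, 2915 bases further 3′, read 258 on day 0 and 1867 on day 6, a difference of 2.63 ± 0.24. The 2 neighbouring probes of Prmt6 thus agreed within the software error while the more 3′ one rose. Ppp1r10, a nuclear targeting subunit of protein phosphatase 1, went the other way along the gene. Its most 5′ probe read 139 on day 0 and 349.6 on day 6, a difference of 1.11 ± 0.31. Its falling probe further 3′ read 867 on day 0 and 454 on day 6, a difference of -1.16 ± 0.22, and the most 3′ probe differed by -1.12. The day 0 value of its rising probe was 1.36 times the lowest intensity well above background. The gene lost the threshold under normexp, without background subtraction, under median scaling and in the deposited value table.

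Of the metabolic genes, Cds2 had the deepest falling probe. It encodes a CDP-diacylglycerol synthase, which makes the precursor of phosphatidylinositol. The falling probe read 4503 on day 0 and 944 on day 6, a difference of -2.48 ± 0.21. The next probe downstream fell by 1.23. The 2 most 3′ probes rose, the first reading 5031 on day 0 and 16786 on day 6, a difference of 1.52 ± 0.20 and the last differing by 1.40, and the most 5′ of the 5 probes differed by -0.11. The 2 falling probes of Cds2 thus differed from each other by more than the software error, and the 2 rising ones did not. Pgm2l1, which makes glucose 1,6-bisphosphate and is abundant in brain, had 3 probes on 1 RefSeq transcript. In 5′ to 3′ order they differed by -1.24, 0.59 and 1.31. The first read 705 on day 0 and 348 on day 6, a difference of -1.24 ± 0.22, and the last read 1268 on day 0 and 3671 on day 6, a difference of 1.31 ± 0.21.

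For mitochondrial proteins, Mrpl35, of the large mitochondrial ribosomal subunit, had 2 falling probes on its RefSeq transcript, the first at -1.05 and the lower reading 2227 on day 0 and 1006 on day 6, a difference of -1.37 ± 0.21. A probe 1959 bases further 3′ read 797 on day 0 and 2317 on day 6, a difference of 1.32 ± 0.21. Tomm70a, an import receptor of the outer mitochondrial membrane, had 4 probes that differed by -1.20, -0.06, 0.01 and 1.35 from 5′ to 3′. The most 3′ probe of Tomm70a went from 353 to 1049, while its 2 middle probes were nearly level between the arrays.

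A group of members is linked to ubiquitin ligases. Kbtbd11 and Klhl25 encode Kelch proteins with a BTB domain, the domain by which such proteins bind Cul3. The Kbtbd11 falling probe read 2851 on day 0 and 985 on day 6, a difference of -1.76 ± 0.21. Its rising probe, 3691 bases downstream, read 8679.7 on day 0 and 44497 on day 6, a difference of 2.13 ± 0.20. The Klhl25 falling probe read 4013 on day 0 and 1475 on day 6, a difference of -1.67 ± 0.20, and its rising probe, 6378 bases downstream, read 2436 on day 0 and 9019 on day 6, a difference of 1.67 ± 0.20. Arih1, a RING-between-RING ubiquitin ligase, had 5 probes that differed from 5′ to 3′ by -1.38, -0.94, 0.12, 0.03 and 1.01. Armc8, of the CTLH ubiquitin ligase complex, had its rising probe most 5′. That probe read 2981 on day 0 and 7678 on day 6, a difference of 1.14 ± 0.20, whereas the falling probe, 38710 bases further 3′, read 6502 on day 0 and 2772 on day 6, a difference of -1.45 ± 0.20.

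Kazn and Cntln, genes of cell contacts and the centrosome, had the 2 widest gaps (4.61 and 4.59), although the gap of Cntln was below that of Cds2 under normexp (3.76 against 3.91) and without background subtraction (3.57 against 3.88). 9030409G11Rik, now Kazn, encodes kazrin, a protein of cell junctions. Its most 5′ probe read 3897 on day 0 and 846 on day 6, a difference of -2.43 ± 0.21. The next probe differed by -1.10, and the most 3′ probe, 38538 bases from the first, read 179 on day 0 and 951 on day 6, a difference of 2.19 ± 0.27. Cntln encodes centlein, a protein of the centrosome. Its most 5′ probe read 509 on day 0 and 234 on day 6, a difference of -1.34 ± 0.24. Its other probes lay 129829 and 136888 bases downstream, midpoint to midpoint. The last of them read 140.1 on day 0 and 1553 on day 6, a difference of 3.25 ± 0.34, the largest rise of any member. Mrc2 encodes an endocytic collagen receptor found on fibroblasts, and its pair was 719 bases apart. The falling probe read 387 on day 0 and 177 on day 6, a difference of -1.36 ± 0.26, and the rising one read 239 on day 0 and 1268 on day 6, a difference of 2.19 ± 0.25. A further Mrc2 probe, 5′ of both on the same strand, read 48.7 on day 0 and 355 on day 6. It was well above background on day 6 only and was not used in the order. Low signal touches all 3 of these pairs. Among the opposing probes, the lowest intensity of Kazn was 1.75 times, of Cntln 1.37 times and of Mrc2 2.06 times the lowest intensity well above background on that array.

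Rundc3a encodes a partner of the small GTPase Rap2 and is known from neurons. Its plus-strand probes, with its RefSeq accession, both rose, 1 by 1.65 and the other reading 814 on day 0 and 3888 on day 6, a difference of 2.03 ± 0.21. Its minus-strand probe read 275 on day 0 and 128 on day 6, a difference of -1.32 ± 0.31. Slc30a7, a zinc transporter of the Golgi, likewise had 2 rising probes on its own strand, 1 at 1.09 and the higher reading 1419 on day 0 and 3603 on day 6, a difference of 1.12 ± 0.21. Its opposite-strand probe read 2128 on day 0 and 1204 on day 6, a difference of -1.04 ± 0.21. For both genes every probe on the strand of the rising one agreed in direction. 6030465E24Rik, now Spg11, is a gene of hereditary spastic paraplegia, and the differences of its 3 probes increased from 5′ to 3′. The first read 469 on day 0 and 187 on day 6, a difference of -1.55 ± 0.26, the next differed by 0.64, and the last read 1560.3 on day 0 and 3846 on day 6, a difference of 1.08 ± 0.21.

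The remaining genes with full values also had the rising probe nearer to the 3′ end. The falling probe of Irgq, of the immunity-related GTPase family, read 708 on day 0 and 397 on day 6, a difference of -1.06 ± 0.22. Its rising probe, 3557 bases downstream, read 1558 on day 0 and 4028 on day 6, a difference of 1.15 ± 0.21. 6620401M08Rik, now Svip, which binds the ATPase VCP, had a falling probe that read 3749.8 on day 0 and 1751 on day 6, a difference of -1.32 ± 0.20. Its rising probe, 2178 bases further 3′, read 1248 on day 0 and 3638 on day 6, a difference of 1.32 ± 0.21, so that the pair moved by like amounts in opposite directions. B230208H17Rik, now Rabl6, a Rab-like GTPase, had a falling probe that read 671 on day 0 and 235 on day 6, a difference of -1.74 ± 0.24. Of its 2 rising probes further 3′, the nearer read 412 on day 0 and 1000.0 on day 6, a difference of 1.06 ± 0.22, and the other differed by 1.03. The 2 rising probes of Rabl6 thus differed by less than the software error. They lay 1420 and 22354.5 bases from the falling probe, midpoint to midpoint. The Abhd8 falling probe read 263 on day 0 and 139 on day 6, a difference of -1.15 ± 0.30, and the rising probe, 2330 bases further 3′, read 951 on day 0 and 3560.0 on day 6, a difference of 1.68 ± 0.21. For 4933413A10Rik, now Wscd2, the falling probe read 193 on day 0 and 105 on day 6, a difference of -1.10 ± 0.37, and the rising probe, 15660 bases further 3′, read 1442 on day 0 and 5386 on day 6, a difference of 1.68 ± 0.21. The falling probes of Abhd8 and Wscd2 were under 2 times the lowest intensity well above background on day 6, and both genes lost the threshold under normexp and without background subtraction.

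The other members are described by their positions. Impad1, now Bpnt2, a phosphatase of the Golgi, differed by -1.22 and 1.17 at 1 to 10 kb, as did D5Wsu178e, now Selenoi, an ethanolamine phosphotransferase, by -1.06 and 1.19. Fgd4, an exchange factor for Cdc42, differed by -1.02 and 1.10 at 1 to 10 kb. At 10 to 100 kb, Tnfrsf19, a receptor of the tumour necrosis factor family, differed by -1.09 and 1.26. Wdfy3, an adaptor of selective autophagy, differed by 1.28 at its more 5′ probe, and 59880 bases further 3′ by -1.02, and A530050D06Rik, now Aspg, an asparaginase, had its rising probe (1.04) 761 bases 5′ of its falling one (-1.09). With Armc8 and Ppp1r10 these are the 4 ordered members whose falling probe was the more 3′ one. H2-Q1 belongs to the major histocompatibility complex class I family, whose members are near-identical, so its 60439-base pair and its values are uncertain.

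**Figure D2:**
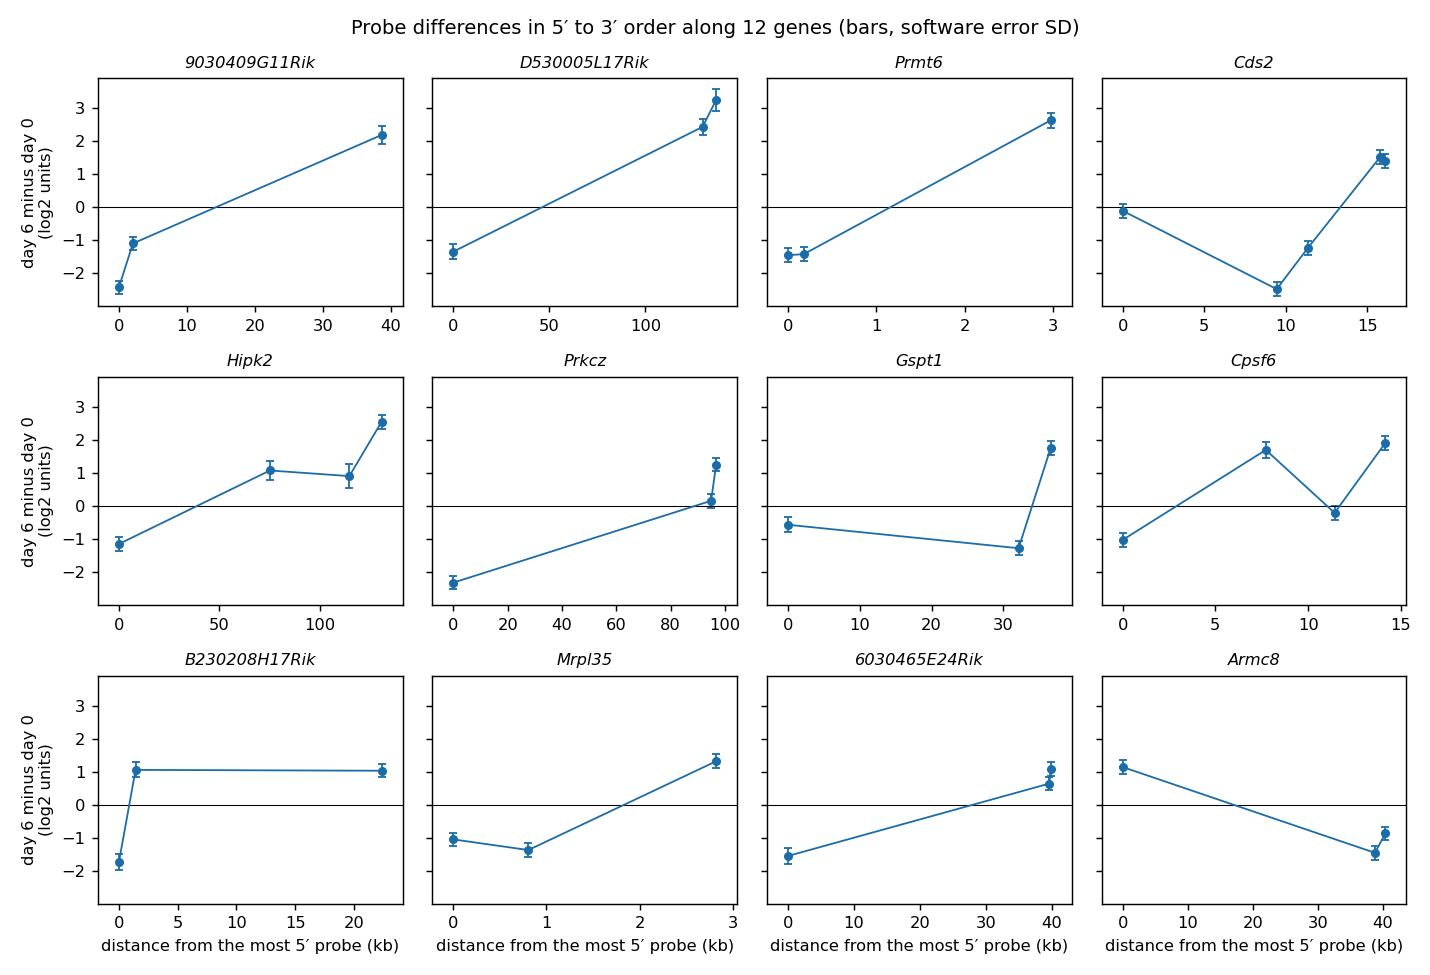
Day 6 minus day 0 difference (log2 units, bars for the software error SD) of every measured probe against its distance in kb from the most 5′ probe, for the 12 members with the widest gaps among those with at least 3 ordered probes. The last probe is the highest in 9030409G11Rik, D530005L17Rik, Prmt6, Hipk2, Prkcz, Gspt1, Cpsf6, Mrpl35 and 6030465E24Rik, while Armc8 starts at 1.14 and ends at -0.87.

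Among 23 members with at least 3 probes in order, the values of the differences increased at every step towards the 3′ end in 9 and decreased at every step in 0, and in 14 they were mixed, with no tolerance set on the size of a step. The 9 were Kazn, Cntln, Prmt6, Prkcz, Spg11, Pgm2l1, Tomm70a, Impad1 and D5Wsu178e. In 6 of them, Kazn, Cntln, Prkcz, Spg11, Pgm2l1 and Impad1, every step was larger than its software error. Such steps were not counted over other genes with at least 3 probes. The counts are thus not read as particular to the members. The most 3′ probe was higher than the most 5′ probe in 31 of the 34 ordered members (91.2%), with a median step of 2.44 log2 units. The members were chosen for a wide gap between their highest and lowest probe, which favours a large step but does not set its direction. The end probes need not be the opposing ones. The step was at least 1 upward in 28 of the 34 and at least 1 downward in 3.

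The same direction was seen with smaller steps over the rest of the array. Of 5191 genes that are no members, the most 3′ probe was higher than the most 5′ one in 3179 (61.2%), with a median step of 0.10. A step of at least 1 log2 unit upward was found in 639 of them (12.3%) and one of at least 1 downward in 228 (4.39%). The share with the 3′ probe higher was 53.6% under 1 kb, 67.7% at 1 to 10 kb, 57.7% at 10 to 100 kb and 54.7% over 100 kb. It was 61.4% where both probes had RefSeq accessions. It was 65.8% for genes whose probes rose by 1 or more on average, 61.1% for genes between and 57.2% for genes that fell by 1 or more. With the 2 arrays made equal in distribution the share was larger, at 70.1% under quantile normalization and 69.9% in the deposited value table. RNA integrity values were not used here, and the part of RNA integrity in this shift and in the order of the members' probes was not tested.

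**Figure D3:**
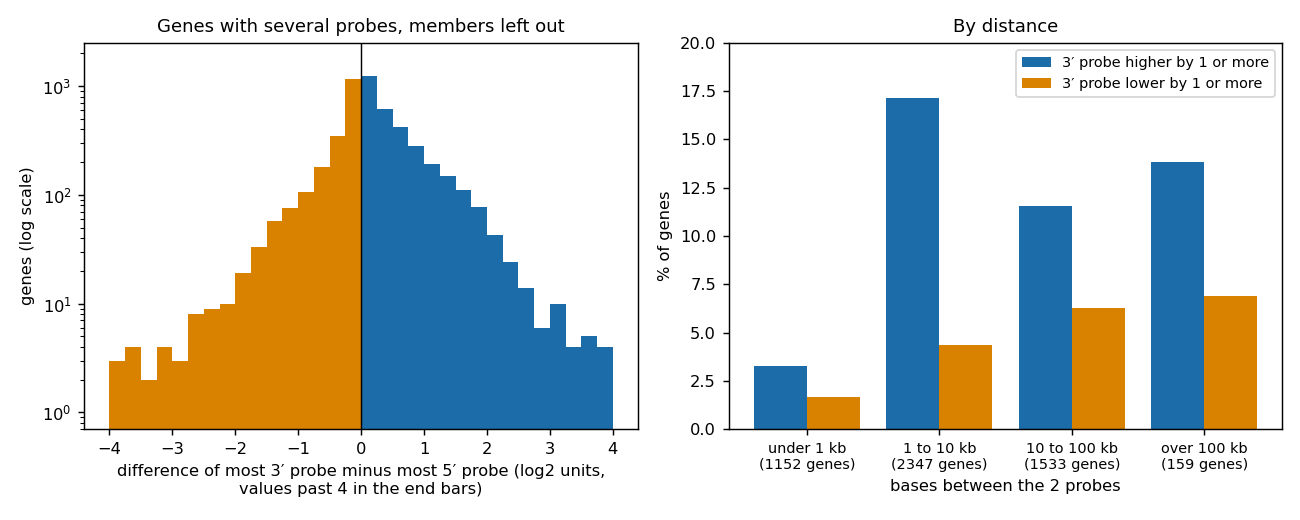
Left, number of genes that are no members (log scale) by the difference of the most 3′ probe minus that of the most 5′ probe, in log2 units; right, percent of those genes with a step of at least 1 in either direction, by the bases between the probes. Upward steps outnumber downward ones at every distance, with 17.1% against 4.35% at 1 to 10 kb.

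The opposing probes differed in the kind of accession they carried. The rising probe carried a GenBank accession in 24 of 37 members and a RefSeq accession in 12, and the falling probe a RefSeq accession in 22 and a GenBank one in 13. Over all 23732 measured probes, 68.5% had a RefSeq and 23.0% a GenBank accession. In the other genes with several probes the highest probe had a GenBank accession in 27.9% and the lowest in 19.5%. In the members these shares were 64.9% and 35.1%. With RefSeq probes alone 8 members remained, and in these 8 the rising probe was the more 3′ one in each pair.

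Stop codons in all 3 reading frames, which a coding stretch cannot have, were present in 11 of 37 rising probes (29.7%) and 6 falling probes (16.2%), against 20.3% of all measured probes. In the other genes with several probes these shares were 22.2% for the highest and 17.5% for the lowest probe. A stop in every frame says that the 60 bases are not wholly coding, and its absence says nothing. None of the 37 rising probes and 4 of the falling probes (10.8%) spanned an exon junction, against 13.6% of all probes with a position. In the other genes with several probes the highest probe spanned a junction in 12.2% and the lowest in 18.1%. The median GC content was 40.0% for rising and 41.7% for falling probes, the same medians as for the highest and lowest probes of other genes. In a RefSeq gene table of the later assembly GRCm38.p6, 19 of 37 members (51.4%) and 54.7% of 5403 other genes had at least 2 curated transcripts. Both opposing probes listed a shared accession in 12 members, although the array files list at most 4 accessions for a probe.

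**Figure D4:**
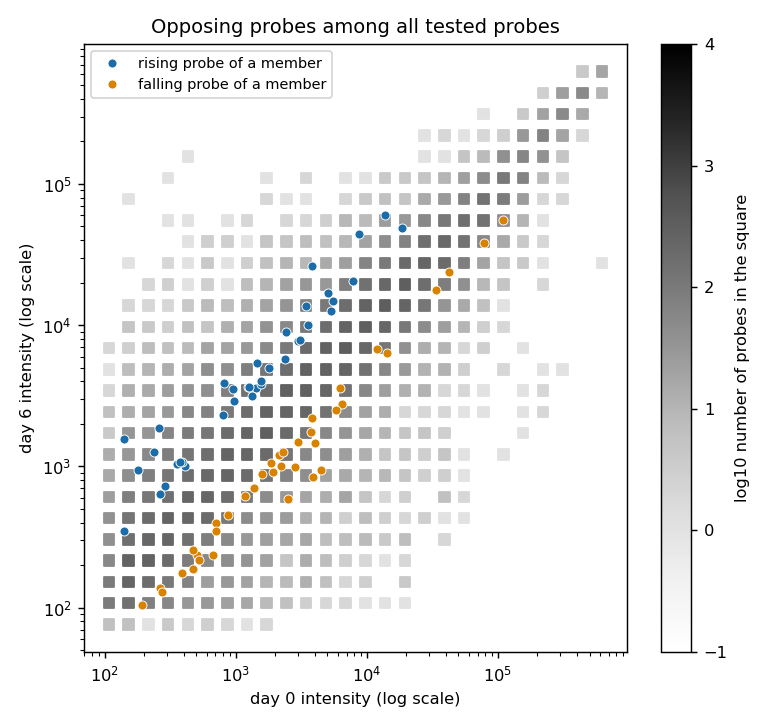
Day 6 against day 0 intensity (both log scales) of the rising and falling probes of the 37 members, over grey squares shaded by the number of all measured probes. The rising probes lie between 139 and 18428 on day 0, the falling probes between 193 and 109798, and members occur from near background to the bright end.

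The intensities of the opposing probes were spread over much of the range of the array. On day 0 the rising probes ranged from 139 to 18428 with a median of 1419, and on day 6 from 349.6 to 60497 with a median of 3846. The falling probes ranged from 193 to 109798 on day 0 with a median of 2227, and from 105 to 55813 on day 6 with a median of 944. The lowest intensity that the software called well above background was 102 (day 0) and 85.9 (day 6). Among the opposing probes, a value under 2 times that intensity occurred in 6 members, namely Kazn, Cntln, Rundc3a, Abhd8, Wscd2 and Ppp1r10. Further probes of the members were not counted here, and some of them, as in Hipk2 and Fgd4, were also that dim. When only probes at least 4 times above that intensity were kept, 20 of the 37 genes remained, and the rising probe was the more 3′ one in 18 of 19 ordered pairs. Without background subtraction, 14 members no longer passed the threshold in both directions, namely Hipk2, Mrc2, Rundc3a, Abhd8, Wscd2, Ppp1r10, Irgq, Arih1, Tnfrsf19, Wdfy3, D5Ertd579e, D5Wsu178e, A530050D06Rik and Fgd4. Under quantile normalization 9 did not, namely Cpsf6, Gspt1, Arl4c, Arpp19, Tomm70a, Arih1, D5Ertd579e, A530050D06Rik and Fgd4. Under median scaling 8 did not, namely Rabl6, Spg11, Arpp19, Ppp1r10, H2-Q1, Arih1, A530050D06Rik and Fgd4.

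The factors that set splicing and RNA ends are given as the other genes of the process, by the brightest probe of each gene. Of 12980 genes measured so, 16.5% rose and 18.0% dropped by 2-fold or more, and the median difference was -0.12. Of 20 neural splicing regulators 16 were measured on both arrays, of which 9 rose 2-fold or more and none dropped so far (median 1.92). The neuronal RNA-binding proteins Elavl4 (5.89 ± 0.20) and Celf3 (5.41 ± 0.25), the neural exon activator Srrm4 (3.27 ± 0.22) and Celf6 (2.63 ± 0.25) had the largest differences. Rbfox2 (-0.60), Celf5 (-0.14), Elavl2 (0.24) and Celf4 (0.27) had the smallest, and Khdrbs2, measured on day 6 only, was at least 2.43-fold higher, taking its day 0 level as the lowest intensity well above background there.

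Of 40 ES cell and ubiquitous splicing regulators, all measured, 1 rose and 8 dropped by 2-fold or more (median -0.24, but 0.0043 under quantile normalization). The lowest were the RNA-binding protein Rbm47 (-4.82 ± 0.28), the epithelial splicing factors Esrp2 (-4.28 ± 0.21) and Esrp1 (-3.30 ± 0.22), and Srsf6 (-1.65), and the highest were Tia1 (1.33), Hnrnpa1 (0.53), Srpk2 (0.50) and Hnrnpll (0.45). Ptbp1, the repressor of neural exons, differed by -1.03 and its neural relative Ptbp2 by 2.03, both picked after their values were seen. Of 22 cleavage and polyadenylation factors 20 stayed within 2-fold, with a median of -0.29. The 2 past it were Cpsf6, whose brightest probe is its rising one, and Cstf2, of the cleavage stimulation factor, at -1.44 ± 0.20. The next were Clp1 (-0.72), Elavl1 (-0.65) and Cpsf2 (-0.59) at the low end and Wdr33 (0.59), Cpsf3 (0.35) and Cstf2t (0.35) at the high end. The value of Cpsf6 in this list holds for that probe only, since its most 5′ probe fell by 1.03.

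Of genes known for an isoform or 3′ end difference between ES and neural cells, 32 had several measured probes. Ncam1, also on that list, met the criterion for the members and was left out of them and of the 32, and none of the 32 met it. The median gap of the 32 was 0.87 log2 units against 0.36 over 5508 genes, both named by current symbols, and 5 (15.6%) had a gap of at least 2, against 4.56%. The 2 sets were not matched in the number of probes per gene, and more probes can only widen a gap. The 5 with a gap of at least 2 were Tpm1, Elavl1, Dst, Dclk1 and Gphn, of which Dst and Gphn had the probes on opposite strands. Elavl1, an RNA-stabilising protein with a longer 3′ UTR in neurons, had probes at 2.26 and -0.65, of which the higher was 2871 bases further 3′. Tpm1, a tropomyosin gene with alternative last exons, had the falling probe further 3′, and missed the threshold by its rising probe alone.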

How the data were processed

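Total RNA of 1 day 0 and 1 day 6 sample was hybridised, each to its own one-colour Agilent array, design 014868. The arrays share a slide, and their place on it cannot be told apart from the time point. Per the file headers, intensities were extracted with Feature Extraction 9.5.3.1, background-subtracted and detrended before deposit, and spots carry marks for outliers and for being well above background. The authors' deposited table of log2 values has sorted columns that differ by at most 0.000469 and a median of 8.53. The 2 distributions were thus made equal before deposit by a step that no label or header names. The differences in this table correlated with those from the scanner files at r = 0.995 across 23732 probes, which are not independent replicates. It served as an alternative.

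Control spots and spots marked as outliers on either array were left out. Log2 intensities were averaged per probe, and each array's 75th percentile over gene probes was subtracted (3758 on day 0 and 4388 on day 6). Probes had to be well above background on both arrays. Genes are those of the array files' name column, and current symbols come from a RefSeq table of GRCm38.p6. Strand follows from the order of the deposited coordinates, and 99.0% of 18841 RefSeq probes lay on the annotated strand of their gene. Lists take the brightest probe of a gene. Python 3.11.15, pandas 2.3.3, R 4.3.3 and limma 3.58.1 were used.

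The opposing probes' values on both arrays are given for the 20 members with the widest gap, those whose opposing probes both have RefSeq accessions, those with 3 or more probes of which 2 pass the threshold in a direction, and those in a list. The members and lists were chosen with earlier results of these data known. With 1 array per group there is no test, and precision is limited by the number of arrays.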

Additional observations from a re-analysis of the deposited data

How the results depend on the processing

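The count of 37 genes was 23 without background subtraction, 75 with probes well above background on at least 1 array and 118 with no filter. It was 4 at 1.5 log2 units in each direction and 191 at 1.5-fold. In alternatives chosen after seeing the data it was 20 with probes at least 4 times the lowest intensity well above background and 8 with RefSeq probes only. Under normexp, median scaling, quantile normalization, the deposited value table, outlier spots kept, current symbols, the software error margin and pairs on a single strand it stayed between 25 and 40. The share of ordered pairs with the rising probe nearer to the 3′ end (88.2%) was 68.1% with probes well above background on at least 1 array, 61.9% with no filter, 71.9% at 1.5-fold, and 100% at 1.5 log2 units (4 genes) and with RefSeq probes only (8 genes). The share of pairs at 1 to 10 kb (54.1%) was 75% in these last 2 and in the bright-probe alternative, but 48.0% with probes well above background on at least 1 array and 37.3% with no filter. In the main setting 46.0% of the other genes with several probes had their pair at that distance. The share of rising probes with a GenBank accession (64.9%) is 0% with RefSeq probes only, by construction. The median of the neural splicing regulators was 1.69 under normexp and 1.62 without background subtraction. That of the ES cell and ubiquitous splicing regulators was 0.0043 under quantile normalization and 0.0054 in the deposited value table. The causes of the other changes were not tested.

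A gap within a gene cannot move under a shift of a whole array. Under the 4 alternatives that can move it, 19 of 108 gaps of named members moved by more than their software error, 18 of them under a background alternative. Under the 5 alternatives of background, scaling and value source, 15 members kept the threshold in each, namely Kazn, Cntln, Prmt6, Cds2, Kbtbd11, Prkcz, Klhl25, Mrpl35, Svip, Armc8, Pgm2l1, Creb1, Impad1, Socs4 and Slc30a7. No paired analysis was possible because each group holds 1 array, and leaving out a replicate would leave a group empty. Signal over background limits the dim probes.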
